A study of Mus musculus with 24 samples.

Results

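Acentriolar spindle pole genes were followed through the maternal-to-zygotic transition of the mouse. The set comprises 9 of the 55471 annotated genes: *Tacc3* and *Tacc1*, *Ckap5*, *Aurka*, *Tpx2*, *Pcnt*, *Cep192*, *Nedd1* and *Cdk5rap2*. *Tacc3* was chosen by its measured log2 IP/input in the m6A immunoprecipitation (IP) of MII oocytes, so its values in every comparison that holds MII libraries are given as a description, without a test. The other 8 genes were listed by name, as genes whose products work at the same spindle poles. All 9 passed the filter on low counts, in a fit of 21950 genes.

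The study measured m6A on RNA with SLIM-seq, an m6A IP made for small samples, in which each IP library is compared with input libraries of RNA that was not passed over the antibody. The m6A experiment covers MII oocytes and L1C and L2C embryos, which are late in the 1-cell and the 2-cell stage, each with 3 IP and 3 input libraries of pooled material. All came from wild-type B6D2F1 mice, a hybrid of C57BL/6 J and DBA/2N, from superovulated females that were 8 weeks old, and L1C and L2C embryos were cultured and collected 27 to 29 h and 48 to 50 h after hCG. A further experiment holds 6 libraries of B6D2F1 embryos grown to L2C after injection as zygotes, of which 3 (KD) received mRNA for the nuclease Cas13d with 3 crRNAs against *Ythdc1*, a nuclear reader of m6A. The other 3 (Ctrl) received the Cas13d mRNA without any crRNA, so both groups carried the nuclease and only KD carried crRNAs. Effects of the crRNAs as such and of the loss of *Ythdc1* cannot be told apart.

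The meiotic spindle of the mouse oocyte and the first spindles of the embryo form without centrioles, from many microtubule organizing centers that gather into poles. Pericentriolar scaffolds such as PCNT, CEP192 and CDK5RAP2 hold gamma-tubulin there, NEDD1 tethers the gamma-tubulin ring, and Aurora A (AURKA), activated by TPX2, phosphorylates TACC3, which recruits the microtubule polymerase CKAP5. TACC3 has a known place in a liquid-like spindle domain around the poles of mammalian oocytes. The m6A mark is placed on adenosine mostly within short motifs of which GGACT is the best known form.

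*Tacc3* lies on chromosome 5 from 33658128 to 33678995 on the plus strand (GRCm38). Its longest annotated protein-coding transcript has 2899 bases in 16 exons, with the coding sequence at bases 602 to 2494. The motif GGACT, searched on the sense strand only, occurred 7 times. The sequences around it are shown because they bear on the transcript with the highest log2 IP/input of the set at MII, by which it was chosen. With 8 bases on either side and the 5 motif bases in capitals, a copy in the 5′ UTR (exon 1, chr5:33658583-33658603, +), the first copy in the coding sequence (exon 5, chr5:33664361-33664381, +) and the repeat copy that follows it, with capitals at the same 5 positions (exon 5, chr5:33664433-33664453, +), read as follows.
5′ UTR copy: acgttccgGGACTgcgagagc
first coding copy: cccatcagGGACTagaacctg
second coding copy: cccatcagGAACTagaacctg

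All 6 coding motifs lay in exon 5 and had the 21 bases of the first coding copy without a difference. They belonged to a tandem repeat with a unit of 72 bases, or 24 codons, which placed the motif at transcript bases 1073, 1217, 1289, 1361, 1433 and 1505. The second coding copy, at base 1145, differed from the others by the substitution G10A, counted from the first base of the window, and this base is the only one by which it lacked the motif. Neighbouring units from base 1073 to base 1433 shared 69 or 70 of 72 bases, and the unit that begins at base 1505 shared 37 with the one before it. Of 21812 protein-coding genes, each with its longest transcript, 3 held 1 window with the motif in 6 or more identical copies, and these were *Tacc3*, *Cdr1* and *Scml2*. This count was made after the repeat had been seen. These are letters of the reference genome, and whether B6D2F1 alleles carry the same number of units was not tested.

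**Figure D1:**
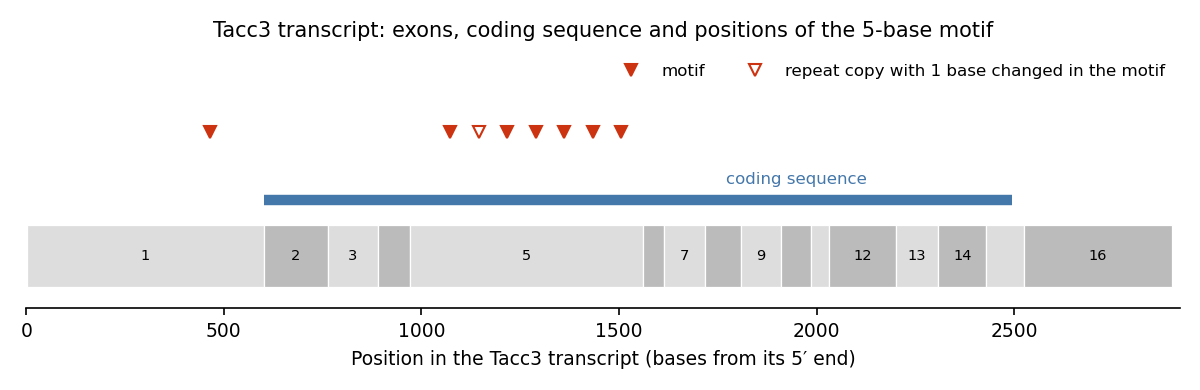
Map of the longest *Tacc3* transcript, with exons as alternating grey boxes (numbered where wide enough), the coding sequence as a blue line and the x axis in bases from the 5′ end. Filled triangles mark the 7 motifs and the open triangle the copy at base 1145 that differs by 1 base, and 6 of the 7 motifs stand in exon 5 at steps of 72 bases or a multiple of it.

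The motif was present 2.41 times per kb in *Tacc3*, a density reached by 6.14% of the 21812 genes, whose median was 1.01 per kb and of which 87.7% held the motif at all. Of 2522 genes with a transcript within 10% of its length, 5.27% held 7 or more copies, with a median of 3. The other genes of the set had lower densities. *Cdk5rap2* had 15 copies in 11847 bases (1.27 per kb), *Tacc1* 9 in 7788 (1.16 per kb), *Cep192* 8 in 8093 (0.989 per kb) and *Aurka* 2 in 1905 (1.05 per kb). *Ckap5* had 5 in 6665 bases (0.75 per kb), *Tpx2* 3 in 4365 (0.687 per kb), *Pcnt* 4 in 9341 (0.428 per kb) and *Nedd1* 1 in 3534 (0.283 per kb). Of the genes within 10% of its length, 96.7% held as many motifs as *Pcnt* or more, and the share for *Nedd1* was 97.4%. A match to the motif is a description of the letters and not a measured m6A site.

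The authors counted SLIM-seq reads over whole gene spans, introns included, and total estimated counts ran from 11107421 to 39739950 over the 18 libraries. The stages matched their labels in known transcripts of the oocyte, whose summed level over 8 genes was 7569 to 8713 CPM (counts scaled to 1000000 per library) in MII inputs and 835 to 849 CPM in L2C inputs, and in 7 genes of the 2-cell embryo, at 6.00 to 6.78 CPM and 331 to 465 CPM. Markers of cumulus cells, the somatic cells around the oocyte, summed to 26.5 to 27.3 CPM over 10 genes in MII inputs and 5.78 to 7.63 CPM in L2C inputs, with *Ptx3* at 0 in all of them. Their part in the results was not tested. IP and input RNA of a stage came from the same batches, but nothing in the sources says which libraries came from separate collections of animals, so p-values measure the spread between these libraries. The levels are relative to all counted RNA of a library. The paper describes priming with oligo-dT, which binds poly(A) tails, for its RNA-seq libraries. Less RNA of a gene per embryo, shorter poly(A) tails on it and fewer cells that hold it cannot be told apart. IP/input is likewise relative to the other genes of a stage. A change of m6A shared by most genes between stages would therefore not show in it.

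*Tacc3* IP signal fell stage by stage from a level far above input to a level below it. At MII its input libraries held 190, 161 and 169 CPM and its IP libraries 1499, 1650 and 1261 CPM (CPM scaled by TMM over all 18 libraries, as for every IP value here). Every IP library stood far above every input library. The mean log2 of the IP libraries over the mean input was 3.07 ± 0.20 (SD, n = 3), and the fitted value was 3.08 (SE 0.14). This put *Tacc3* first of 7257 protein-coding genes with at least 10 CPM in MII inputs, just above *Camk1d* at 3.01 and *Cdk8* at 2.99, and 226th of 16163 without that limit on level.
At L1C the inputs held 415, 393 and 529 CPM and the IPs 722, 661 and 635 CPM. Every IP library was above every input library, and the log2 IP/input was 0.59 (SE 0.13, edgeR adjusted p = 0.0015), rank 866 of 7244 genes at the same limit.
At L2C the inputs held 239, 298 and 249 CPM and the IPs 192, 192 and 184 CPM. The IP libraries now lay below all inputs, by 0.47 on the log2 scale (-0.47, SE 0.13, edgeR adjusted p = 0.0068). Scaled to library size alone, with no TMM, this value was -0.22 with an edgeR adjusted p of 0.17, so the depletion at L2C depends on the scaling, which moves the median of all genes from 0.09 to 0.34. *Tmem129*, on the other strand, overlaps the end of *Tacc3* by 289 bases and held 57.7 to 65.6 CPM in L2C inputs and 11.1 to 20.1 CPM in L2C IPs, against 1.26 CPM or less at MII. Its part in the *Tacc3* values at L2C was not tested.

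The fall between L1C and L2C, a contrast without MII libraries, was tested as an interaction of stage and IP. The fit that gave its SE and p held all 18 libraries, those of MII among them. The *Tacc3* enrichment fell by 1.06 on the log2 scale (SE 0.18, edgeR adjusted p = 0.0015), and no library left out alone ended this call (-1.21 to -0.97). From MII to L1C the difference was -2.49 (SE 0.19) and from MII to L2C -3.55 (SE 0.19), given without a test.

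**Figure D2:**
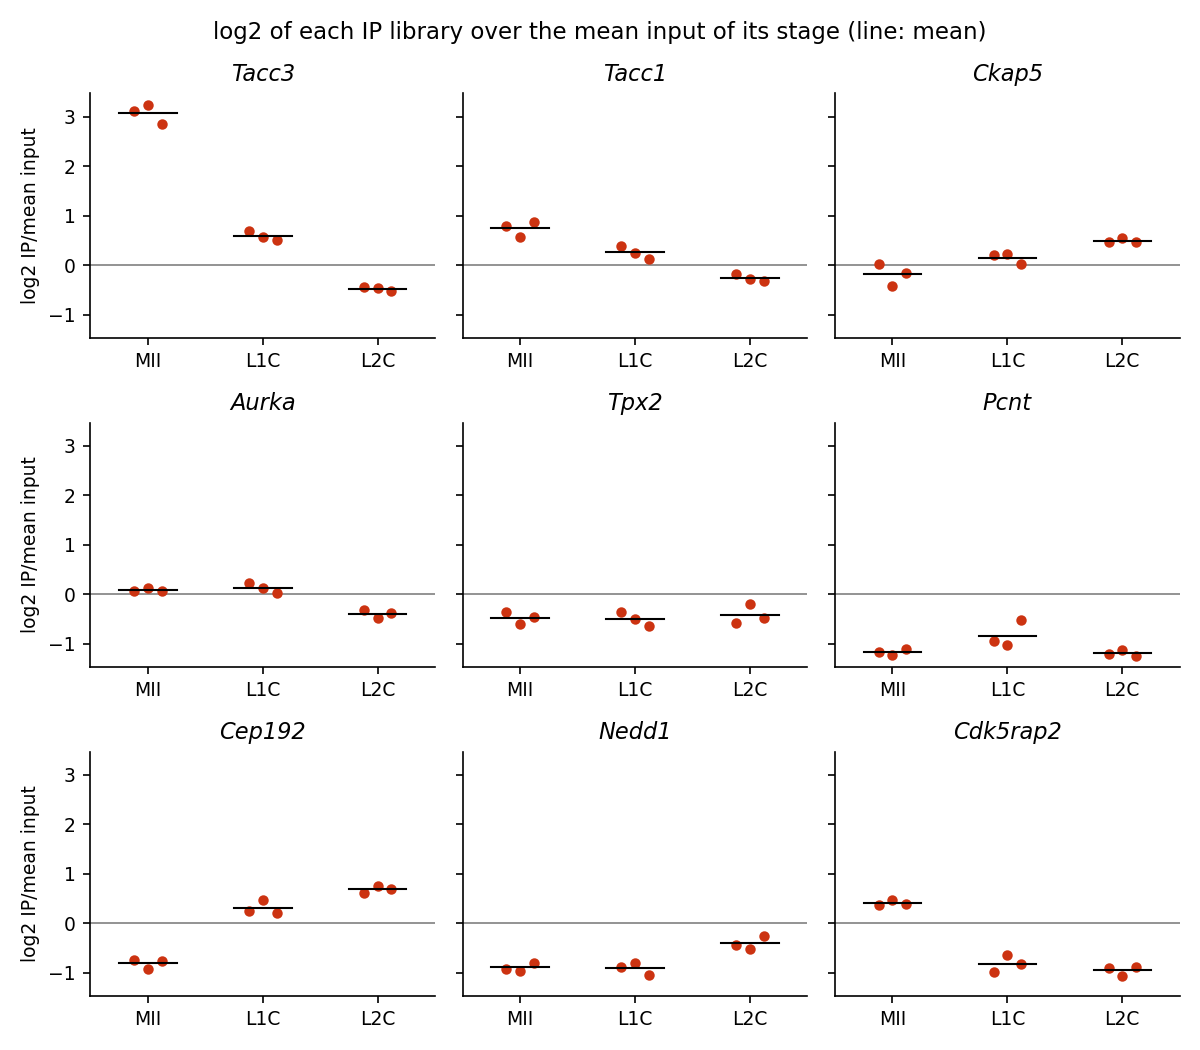
Each point is an IP library, as log2 of its CPM over the mean CPM of the 3 inputs of its stage (y axis, no unit), with the mean as a line and one panel per gene. *Tacc3* drops from 2.86 to 3.25 at MII to -0.51 to -0.45 at L2C, *Tacc1* takes the same order at a smaller size, and *Cep192* and *Ckap5* run the other way.

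The rest of the set was not marked by high enrichment at MII. Of the 8 other genes, 2 were higher in IP than in input at MII, 4 were lower and 2 did not pass the test, where 38.6% of all genes tested passed it (17.7% higher and 21% lower). The median log2 IP/input of the 8 was -0.32, beside 0 over all genes tested. At L1C, 1 of the 9 genes was higher and 4 were lower (33.9% of all genes called, 15.8% higher and 18.2% lower), with a median of 0.13 against 0.07. At L2C, 2 were higher and 6 were lower (44% of all genes called, 22% in either direction), with a median of -0.40 against 0.09. Scaled to library size alone, 5 were higher and 3 lower at L1C, and 2 higher and 2 lower at L2C. That scaling moved the median of all genes to 0.37 at L1C and 0.34 at L2C. The share of all genes called under it is not given here.

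*Tacc1*, the paralog of *Tacc3* (chromosome 8, 25154552 to 25256588), had a much lower signal but the same order of stages. Its MII inputs held 56.3, 61.0 and 57.6 CPM and its IPs 102, 86.8 and 107 CPM, without overlap. The log2 IP/input at MII was 0.76 (SE 0.11, edgeR adjusted p = 1.3e-05). At L1C inputs of 58.2, 51.8 and 51.4 CPM stood against IPs of 70.6, 64.3 and 59.1 CPM, at 0.26 (SE 0.11, edgeR adjusted p = 0.063). At L2C the inputs held 66.8, 66.7 and 64.0 CPM and the IPs 58.4, 54.1 and 52.5 CPM, at -0.26 (SE 0.11, edgeR adjusted p = 0.056). The libraries at L1C and at L2C did not overlap either, but neither difference passed the threshold. Without L1C input replicate 1 or L1C IP replicate 3 the L1C value was 0.32 and passed (edgeR adjusted p = 0.044 and 0.047). With all libraries it passed with DESeq2 (0.31, adjusted p = 0.032), with protein-coding genes only (0.29, edgeR adjusted p = 0.036) and under scaling to library size (0.57, edgeR adjusted p = 0.00053). The L2C value was -0.01 under scaling to library size (edgeR adjusted p = 0.98), and it passed with only the L2C libraries in the fit (-0.30, edgeR adjusted p = 0.046). The difference between stages did: from MII to L2C the enrichment of *Tacc1* fell by 1.01 on the log2 scale (SE 0.15, edgeR adjusted p = 9.1e-05).

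*Ckap5*, the microtubule polymerase that TACC3 recruits (chromosome 2, 91526762 to 91620664), was higher in IP than in input at L2C. At MII the inputs of 170, 167 and 173 CPM were overlapped by IPs of 173, 128 and 154 CPM, and the log2 IP/input was -0.17 (SE 0.13, edgeR adjusted p = 0.33). At L1C the inputs held 137, 103 and 106 CPM and the IPs 134, 136 and 116 CPM, which also overlapped. The L1C value of 0.16 (edgeR adjusted p = 0.37) became 0.46 and passed under scaling to library size (edgeR adjusted p = 0.0081). At L2C inputs of 95.2, 79.2 and 90.9 CPM lay below IPs of 122, 129 and 122 CPM, and the value was 0.49 (SE 0.13, edgeR adjusted p = 0.0043). Its enrichment rose from MII to L2C by 0.66 (SE 0.18, edgeR adjusted p = 0.013), opposite to *Tacc3* and *Tacc1*.

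The kinase gene *Aurka* (chromosome 2, 172356190 to 172370535) was not past the threshold at MII and L1C and was below input at L2C. At MII its inputs held 292, 279 and 298 CPM and its IPs 303, 317 and 305 CPM, higher in each IP library but by a log2 of only 0.09 (SE 0.11, edgeR adjusted p = 0.57). At L1C inputs of 287, 313 and 369 CPM and IPs of 380, 350 and 330 CPM overlapped. At L2C the inputs held 527, 615 and 512 CPM and the IPs 440, 395 and 427 CPM, all lower, at -0.39 (SE 0.11, edgeR adjusted p = 0.0067). Scaling to library size ended the call at L2C, at -0.14 (edgeR adjusted p = 0.32), and gave calls of higher IP at MII, at 0.33, and at L1C, at 0.43 (edgeR adjusted p = 0.025 and 0.0046).

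*Tpx2*, which activates Aurora A on microtubules (chromosome 2, 152847964 to 152895321), was below input at all 3 stages by much the same factor. Its MII inputs held 398, 404 and 452 CPM and its IPs 324, 275 and 303 CPM. At L1C these were 383, 331 and 359 CPM and 277, 254 and 229 CPM, and at L2C 420, 409 and 442 CPM and 284, 369 and 306 CPM. No IP library reached an input library of its stage. The log2 IP/input was -0.48, -0.50 and -0.41 (SE 0.12 each, edgeR adjusted p = 0.0027, 0.0023 and 0.0076). Scaled to library size alone, these were -0.24, -0.19 and -0.15, and none of the 3 passed (edgeR adjusted p = 0.13, 0.22 and 0.32).

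*Pcnt*, a large pericentriolar scaffold (chromosome 10, 76351263 to 76442786), had the lowest IP/input of the set at MII and at L2C. The MII inputs held 486, 573 and 576 CPM and the IPs 241, 232 and 253 CPM. At L1C they held 136, 200 and 182 CPM and 89.5, 84.7 and 120 CPM, and at L2C 144, 144 and 148 CPM and 62.7, 67.1 and 61.6 CPM. All IP libraries were below all inputs at each stage. The log2 IP/input was -1.17 (SE 0.14, edgeR adjusted p = 1.7e-06) at MII, -0.82 (SE 0.14, edgeR adjusted p = 0.00015) at L1C and -1.19 (SE 0.14, edgeR adjusted p = 2.1e-06) at L2C. None of the 3 differences between stages passed the test.

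*Nedd1*, the tether of the gamma-tubulin ring (chromosome 10, 92684746 to 92722420), was depleted in a similar way. Its inputs held 441, 446 and 420 CPM at MII and 684, 534 and 498 CPM at L1C, and its IPs 231, 225 and 248 CPM and 310, 327 and 277 CPM. At L2C inputs of 86.1, 63.7 and 77.0 CPM stood above IPs of 56.1, 52.9 and 63.3 CPM, still without overlap. The log2 IP/input was -0.89 and -0.91 at MII and L1C (SE 0.13 each, edgeR adjusted p = 1.8e-05 and 2.2e-05), and -0.40 at L2C (SE 0.13, edgeR adjusted p = 0.02). The call at L2C ended without L2C input replicate 1, L2C IP replicate 1 or L2C IP replicate 2 (edgeR adjusted p = 0.10, 0.056 and 0.067), and under scaling to library size (-0.14, edgeR adjusted p = 0.38).

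*Cep192*, which recruits Aurora A and its partners to the poles (chromosome 18, 67800107 to 67885170), went from depleted to enriched. The MII inputs held 25.6, 22.6 and 27.2 CPM and the IPs 15.0, 13.3 and 14.7 CPM, at a log2 of -0.81 (SE 0.15, edgeR adjusted p = 0.00023). At L1C the inputs of 15.8, 11.0 and 10.5 CPM overlapped with IPs of 14.8, 17.3 and 14.4 CPM, at 0.31 (SE 0.15, edgeR adjusted p = 0.12). Without L1C input replicate 1, the highest of the 3, that value was 0.52 and passed (edgeR adjusted p = 0.008), as it did with all libraries under scaling to library size (0.61, edgeR adjusted p = 0.0025). At L2C inputs of 42.0, 36.8 and 43.5 CPM lay below IPs of 62.3, 69.2 and 66.0 CPM, at 0.69 (SE 0.14, edgeR adjusted p = 0.0007). The rise of enrichment passed the direct test from MII to L1C, at 1.12 (SE 0.21, edgeR adjusted p = 0.002), and from MII to L2C, at 1.5 (SE 0.21, edgeR adjusted p = 4.2e-05).

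*Cdk5rap2*, a scaffold that binds and activates gamma-tubulin rings (chromosome 4, 70216856 to 70410443), went the other way. At MII inputs of 145, 139 and 147 CPM lay below IPs of 185, 198 and 188 CPM, at a log2 of 0.41 (SE 0.11, edgeR adjusted p = 0.0043). At L1C the inputs rose to 983, 818 and 940 CPM with IPs of 464, 583 and 516 CPM, and at L2C they held 682, 723 and 705 CPM with IPs of 375, 334 and 383 CPM. The log2 IP/input was -0.81 at L1C and -0.95 at L2C (SE 0.10 and 0.11, edgeR adjusted p = 6.9e-06 and 9.4e-07). Its enrichment fell by 1.22 from MII to L1C (SE 0.15, edgeR adjusted p = 3.1e-05) and by 1.36 from MII to L2C (SE 0.15, edgeR adjusted p = 3.7e-06). The change of the input that these ratios rest on is described further on, with the counts over its span.

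Counted over the set, the test of the difference between stages passed for 2 of the 8 genes other than *Tacc3* from MII to L1C (1 higher, 1 lower), where 7.33% of all genes passed (3.13% higher and 4.21% lower). From L1C to L2C it passed for 3 of 9 genes, all lower, with 9.47% of all genes called and 4.47% called lower. These were *Tacc3*, *Tacc1* at -0.52 (SE 0.15, edgeR adjusted p = 0.035) and *Aurka* at -0.52 (SE 0.15, edgeR adjusted p = 0.039). The last 2 are weak: leaving out single libraries ended the call of *Tacc1* in 9 of 12 fits and that of *Aurka* in 7 of 12, and with the replicate number as a block their edgeR adjusted p rose to 0.085 and 0.13. For *Tacc1* the libraries were L1C input replicates 2 and 3, all 3 L2C inputs, L1C IP replicates 1 and 2 and L2C IP replicates 2 and 3 (-0.55 to -0.44, edgeR adjusted p = 0.054 to 0.10). For *Aurka* they were L1C input replicates 1 and 2, L2C input replicate 2, L1C IP replicates 1 and 2 and L2C IP replicates 2 and 3 (-0.54 to -0.44, edgeR adjusted p = 0.059 to 0.10). From MII to L2C it passed for 5 of the 8 other genes, 2 higher and 3 lower, with 20.3% of all genes called (11.1% higher and 9.21% lower). Of these, *Aurka* changed by -0.48 (SE 0.15, edgeR adjusted p = 0.032, and 0.11 with the replicate block). Leaving out single libraries ended this *Aurka* call in 7 of 12 fits, those without MII input replicate 1 or 2, L2C input replicate 2, MII IP replicate 1 or 2 and L2C IP replicate 2 or 3 (-0.50 to -0.41, edgeR adjusted p = 0.050 to 0.078). A library left out also brought some values past the threshold: *Tacc1* from MII to L1C, -0.49 with all libraries (edgeR adjusted p = 0.054), became -0.58 without MII IP replicate 2 and -0.59 without L1C IP replicate 1 (edgeR adjusted p = 0.028 and 0.034). It also passed with all libraries under DESeq2 (-0.52, adjusted p = 0.025), with protein-coding genes only (-0.52, edgeR adjusted p = 0.034) and with only both stages in the fit (-0.57, edgeR adjusted p = 0.044). *Nedd1* from MII to L2C, 0.50 (edgeR adjusted p = 0.064), became 0.59 without L2C input replicate 1 (edgeR adjusted p = 0.037). With protein-coding genes only it passed at 0.50 (edgeR adjusted p = 0.046), as did its change from L1C to L2C at 0.54 (edgeR adjusted p = 0.049, against 0.087 with all genes). The comparisons share libraries of a stage and are not independent of each other. *Tpx2* had no change of enrichment past the threshold, and the 95% interval of its difference from MII to L2C ran from -0.27 to 0.41.

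The mRNA levels of the set, taken from the inputs alone, changed in several patterns. CPM is here scaled by TMM over the 9 inputs, so a library's values differ by a constant factor from those above. From MII to L1C, 2 of the 8 genes other than *Tacc3* rose and 3 fell, with 56.2% of all genes called (31.9% up and 24.3% down). From L1C to L2C, 4 of 9 rose and 2 fell, with 82.9% called (44.1% up and 38.8% down). From MII to L2C all 8 passed, 5 up and 3 down, with 84.6% called (47.5% up and 37.1% down), so that at these steps a passed test is the rule among all genes. With all 18 libraries in the fit 6 of the 8 passed from MII to L2C, without *Tpx2* and *Tacc1*. The share of all genes called in that fit is not given here. The scale matters for the whole set: in deposited TPM, given without a test, the log2 changes of all 9 genes were lower than these by about 0.29 from MII to L1C, 0.44 from L1C to L2C and 0.73 from MII to L2C. The median change of all 19903 genes tested was 0.16, 0.17 and 0.40 on the log2 scale over these 3 steps.

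*Tacc3* mRNA was lowest in the oocyte. It stood at 155, 135 and 142 CPM in MII inputs, 362, 346 and 471 CPM at L1C and 247, 314 and 257 CPM at L2C, so that no 2 stages overlapped on this scale. In deposited TPM its MII libraries (55.1 ± 4.96) and L2C libraries (62.7 ± 6.84) overlapped, and their log2 difference was 0.19. From L1C to L2C it fell by 0.53 on the log2 scale (SE 0.14, edgeR adjusted p = 0.0033). Against MII it was higher by 1.45 at L1C (SE 0.14) and by 0.92 at L2C (SE 0.14; 0.59 with all 18 libraries in the fit), given without a test. On the scale of all 18 libraries the input rose from MII to L1C from 174 ± 14.6 to 446 ± 73.1 CPM while the IP level dropped from 1470 ± 196 to 673 ± 44.9 CPM (mean ± SD, n = 3). *Tacc1* mRNA was level from MII (46.0, 50.8 and 48.4 CPM) to L1C (50.8, 45.5 and 45.8 CPM). It then rose to 69.0, 70.3 and 66.1 CPM, by 0.53 (SE 0.12, edgeR adjusted p = 0.00067). Its change from MII to L2C was 0.50 (edgeR adjusted p = 0.001), and 0.17 with all 18 libraries in the fit (edgeR adjusted p = 0.13). In deposited TPM the direction turned, from 3.74 ± 0.147 at MII to 3.19 ± 0.151 at L2C (log2 -0.23), without overlap, and the step from L1C to L2C overlapped (0.09). The sign of the change of *Tacc1* over MII to L2C thus depends on the scale.

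*Pcnt* and *Cdk5rap2*, both scaffolds of the pericentriolar material, changed most from MII to L1C, in opposite directions. *Pcnt* held 397, 477 and 484 CPM at MII and 119, 176 and 162 CPM at L1C, a fall by 1.57 (SE 0.15, edgeR adjusted p = 8.2e-07), and it stayed at 149, 152 and 153 CPM at L2C. *Cdk5rap2* held 118, 116 and 123 CPM at MII and 859, 720 and 837 CPM at L1C, a rise of 2.76 (SE 0.12, edgeR adjusted p = 2.9e-10), and 704, 763 and 728 CPM at L2C. This last step, -0.14, did not pass (edgeR adjusted p = 0.25), but with all 18 libraries in the fit it was -0.38 and passed (edgeR adjusted p = 0.0028). The third scaffold, *Cep192*, fell and then rose, with 20.9, 18.8 and 22.9 CPM at MII, 13.8, 9.70 and 9.33 CPM at L1C and 43.3, 38.8 and 44.9 CPM at L2C. Its steps were -0.93 (SE 0.17, edgeR adjusted p = 0.00041) and 1.95 (SE 0.17, edgeR adjusted p = 8.2e-08).

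*Nedd1* had the largest fall of the set. It stood at 361, 372 and 353 CPM at MII and at 598, 470 and 443 CPM at L1C, a rise of 0.48 (SE 0.14, edgeR adjusted p = 0.0092), which in deposited TPM was 0.19 with overlap. Then it dropped to 88.9, 67.2 and 79.5 CPM at L2C, by 2.68 on the log2 scale (SE 0.15, edgeR adjusted p = 4.4e-10). *Aurka* rose instead, from 239, 232 and 250 CPM at MII and 251, 275 and 328 CPM at L1C to 544, 649 and 529 CPM at L2C. Its step from L1C to L2C was 1.01 (SE 0.13, edgeR adjusted p = 4.3e-06), and the earlier step, 0.24, did not pass (edgeR adjusted p = 0.12), but was 0.33 and passed without L1C input replicate 1 (edgeR adjusted p = 0.040).

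*Tpx2*, the activator of Aurora A, had a change from MII to L2C whose sign depends on the scale. It held 325, 337 and 380 CPM at MII, 335, 291 and 319 CPM at L1C and 434, 432 and 457 CPM at L2C, with a step of 0.48 from L1C to L2C (SE 0.11, edgeR adjusted p = 0.001), which was 0.24 with all 18 libraries in the fit and did not pass (edgeR adjusted p = 0.058). Over MII to L2C its change of 0.34 (SE 0.11, edgeR adjusted p = 0.01) was below the median of all genes, and it was 0.02 with all 18 libraries in the fit (edgeR adjusted p = 0.88) and 0.28 with no filter on low counts (edgeR adjusted p = 0.081). In deposited TPM it turned to -0.39, from 58.0 ± 3.82 to 44.4 ± 1.75, without overlap, and the step from L1C to L2C was 0.04 with overlap. In the counts it did not pass without MII input replicate 1 (0.28) or 2 (0.31, edgeR adjusted p = 0.056 and 0.053). *Ckap5* fell from 139, 139 and 145 CPM at MII to 119, 90.5 and 94.3 CPM at L1C, by 0.48 (SE 0.13, edgeR adjusted p = 0.006). Its L2C inputs of 98.3, 83.5 and 93.8 CPM overlapped with those of L1C on this scale, and the step of -0.14 did not pass (edgeR adjusted p = 0.31), but with all 18 libraries in the fit it was -0.38 and passed (edgeR adjusted p = 0.01).

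**Figure D3:**
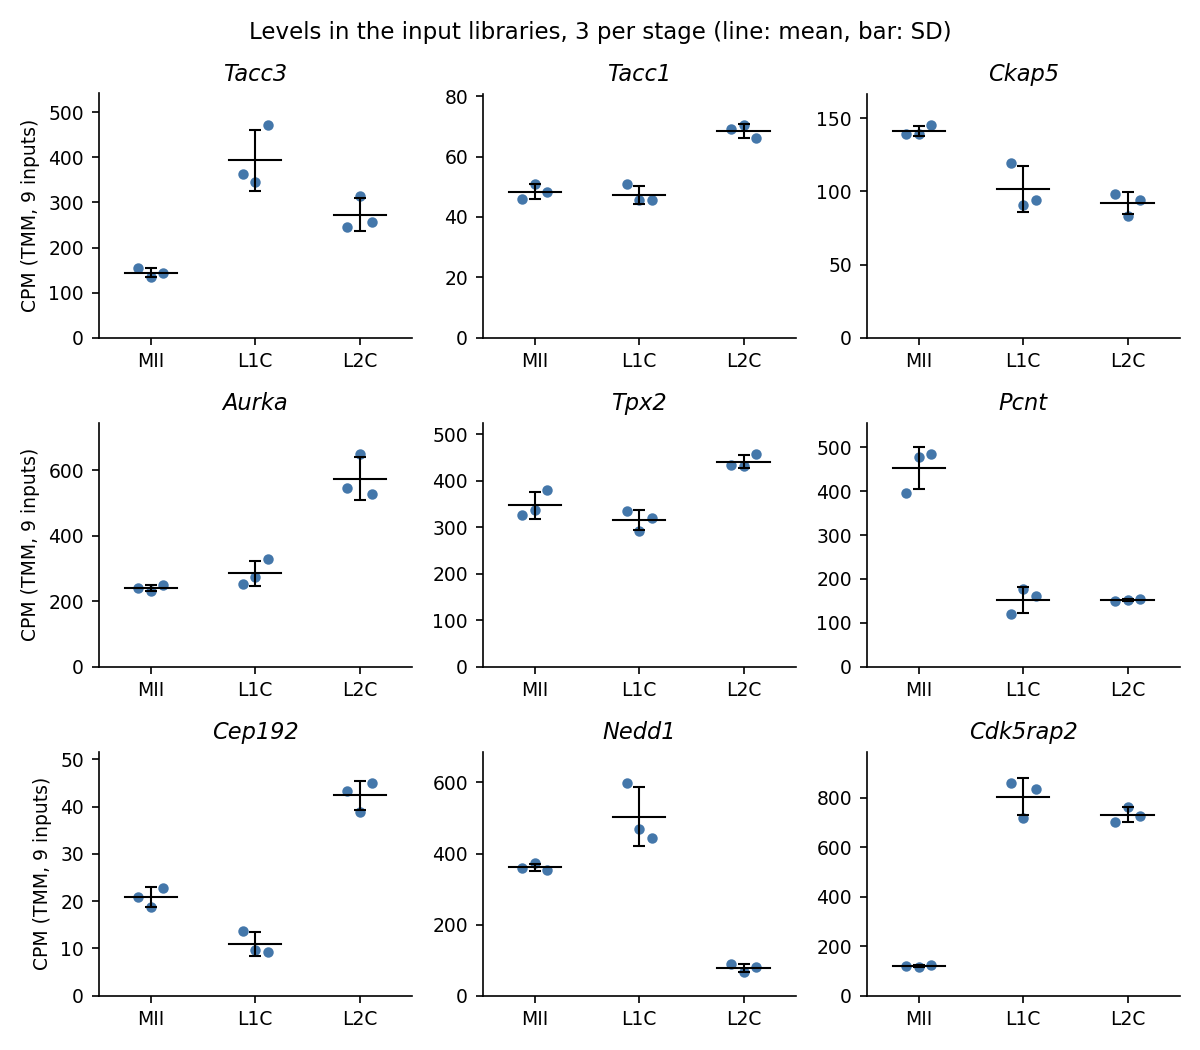
CPM of the 9 genes in the input libraries (y axis from 0, scaled by TMM over the 9 inputs; x axis, stage), with each library as a point, the mean as a line and the SD as a bar. *Pcnt* drops after MII, *Nedd1* after L1C, *Cdk5rap2* and *Tacc3* rise from MII to L1C, and *Aurka* and *Cep192* are highest at L2C.

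The order of the genes by level differed between exon counts of the injection experiment and span values of the SLIM-seq inputs. On exons, the only count that leaves out introns, the Ctrl embryos of the injection experiment at L2C held most *Tpx2*, with 163 ± 4.84 CPM per kb of exons (SD, n = 3). *Tacc3* with 72.6 ± 2.37, *Aurka* with 60.7 ± 6.27, *Ckap5* with 24.1 ± 0.749 and *Nedd1* with 19.7 ± 1.21 CPM per kb followed, each apart from the next. *Tacc1* at 11.0 ± 0.187 and *Cep192* at 10.2 ± 0.86 CPM per kb overlapped, and *Pcnt* (4.82 ± 0.73) and *Cdk5rap2* (0.754 ± 0.069) were lowest. The SLIM-seq inputs can be set side by side only per length of the whole span, as deposited TPM. In TPM *Aurka* led at MII (134 ± 4.46), before *Nedd1* (76.2 ± 2.81), *Tpx2* (58.0 ± 3.82) and *Tacc3* (55.1 ± 4.96), of which the last pair overlapped. At L1C *Aurka* (131 ± 18.6) and *Tacc3* (123 ± 21.8 TPM) overlapped at the top, with *Nedd1* at 86.7 ± 14.0. At L2C *Aurka* had 193 ± 18.8, *Tacc3* 62.7 ± 6.84, *Tpx2* 44.4 ± 1.75 and *Cdk5rap2* 17.9 ± 0.309 TPM, so that *Aurka* stood before *Tpx2* and *Cdk5rap2* stood before *Nedd1*, where exon counts put it last. *Cep192* was lowest in TPM at all 3 stages. The comparison on exons was added after the data were seen.

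Counting over the whole span bears on *Cdk5rap2* above all. Its exons make up 6.72% of its span of 193588 bases, the lowest share of the set (the others 9.88% to 17.6%). At L2C its inputs held 772 ± 27.1 CPM by gene span, while the Ctrl libraries of the injection experiment, which were counted on exons alone and come from the same stage, held 9.82 ± 0.898 CPM (both as CPM of all counts of a library, without TMM, n = 3). The span value was 78.7 times the exon value, at percentile 99.1 of 10674 protein-coding genes. *Aurka* (3.95-fold) and *Pcnt* (2.73-fold) were also higher by span, *Tacc3* and *Nedd1* were within 1.12-fold and 1.03-fold, and the other 4 were lower by span, down to 0.351-fold for *Cep192*. The 2 experiments differ in the injection, in the counting and in the programs that assigned reads, kallisto against HISAT2 and featureCounts. Stage markers differed as well. The 8 oocyte transcripts summed to 835 to 849 CPM in L2C inputs and to 1619 to 1716 CPM in Ctrl. The 7 2-cell transcripts summed to 331 to 465 CPM and to 1141 to 1232 CPM. These differences cannot be told apart here. The processed pseudogene *Ywhaq-ps3* lies inside *Cdk5rap2*, with 7.49 to 78.1 CPM over the inputs and IPs. The rise of *Cdk5rap2* from MII to L1C and its IP/input at L1C and L2C are therefore values of the span, and what share comes from exons was not tested.

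**Figure D4:**
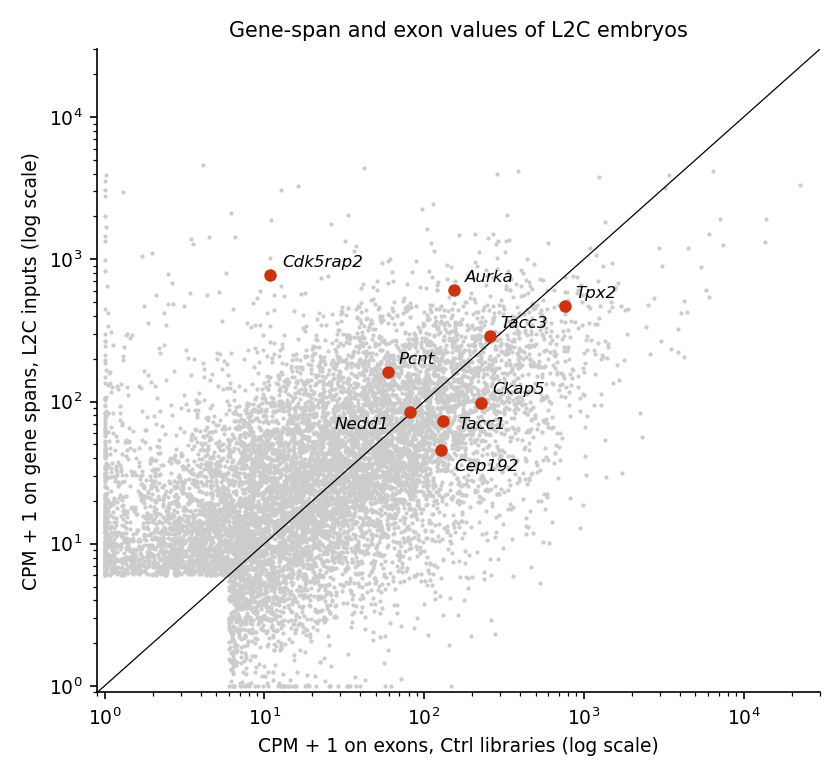
CPM + 1 at L2C by gene span (y axis, mean of 3 inputs) against CPM + 1 on exons (x axis, mean of 3 Ctrl libraries), both on log scales, for 10674 protein-coding genes in grey and the 9 genes in red, with the line of equal values. *Cdk5rap2* stands far above the line, at 772 and 9.82 CPM, while *Tacc3* and *Nedd1* lie close to it.

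Genes of related function were read from 6 lists with 75 entries for 74 genes, all of them tested for IP/input. Of the 8 genes of augmin, the complex that starts new microtubules on the side of existing ones, 6 were higher in IP than in input at MII and 2 lower, where 17.7% of all genes were higher and 21% lower. Their median log2 IP/input was 0.99 beside 0 over all genes. *Haus8*, which ties augmin to microtubules, held 31.8 ± 1.44 CPM in MII IPs against 7.71 ± 0.0743 CPM in inputs (mean ± SD, n = 3), a log2 of 2.04 (SE 0.16, edgeR adjusted p = 7.4e-09). *Haus5* was the main exception, at -1.64 (SE 0.19, edgeR adjusted p = 1.4e-06). At L1C 2 augmin genes were higher and 1 lower (15.8% and 18.2% of all genes), and at L2C 2 were higher and 2 lower (22% of all genes each way). From MII to L2C the enrichment of 3 of the 8 fell (9.21% of all genes), with *Haus8* falling by 2.38 (SE 0.22, edgeR adjusted p = 6.2e-07).

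The other lists are read against the same 17.7% higher and 21% lower over all genes. Of 12 partners of TACC3, 3 were higher and 7 lower (median -0.75), of 14 genes of the gamma-tubulin ring and its tethers 1 and 7 (median -0.32), and of 15 centriole assembly genes 5 and 10 (median -0.57). Of 11 plus-end and minus-end proteins 3 were higher and 5 lower (median -0.38). Among 15 genes of the Ran pathway and activators of Aurora A, 7 were higher and 4 lower (median 0.13). *Nusap1*, a Ran-regulated microtubule bundler, was highest among these, with 356 ± 66.0 CPM in MII IPs and a difference from input of 2.48 on the log2 scale (SE 0.17, edgeR adjusted p = 1.0e-09). *Tacc2*, the third TACC gene, lies within the span of *Fgfr2* and was listed at 0 counts in L1C and L2C inputs, so no value is given for it, though it counts among the 7 partners that were lower at MII. *Haus6*, which stands in the list of augmin and in that of the partners, is the gene entered in both.

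The 5 protein-coding genes whose log2 CPM was most like that of *Tacc3* over the 18 libraries, of 8483 with a mean of at least 10 CPM, were *Nostrin* (Pearson r = 0.939), *Haus8* (0.937), *Hdlbp* (0.936), *Asxl1* (0.925) and *Chaf1a* (0.916). The 18 libraries fall into 6 groups of 3, so these values describe a shared pattern over groups. The MII libraries by which *Tacc3* was chosen are among the 18. Within the set, *Tacc1* was most like *Tacc3* (0.745), and *Cep192* (-0.716) and *Tpx2* (-0.588) were most unlike it.

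In the injection experiment *Ythdc1*, the target of the crRNAs, held 523, 541 and 519 CPM in KD and 1080, 1098 and 994 CPM in Ctrl libraries. It was lower in all 3 KD libraries, at a log2 of -1.0 (SE 0.062, edgeR adjusted p = 1.3e-10), or a fold of 0.499. The deposited table of all 6 libraries holds 25739 genes and includes *Ythdc1* and 5 of the 9 genes, and CPM from it is scaled to the counts within it, 3276715 to 5463868 per library. The other 4 genes were tested on the whole annotation with 2 KD and 3 Ctrl libraries, at 8696476 to 14500548 counts per library.

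Among the 5 genes that this count matrix holds, 2 were higher in KD, 2 were lower and 1 did not pass, where 70.9% of all genes tested passed (33.5% higher and 37.4% lower). *Tacc3* held 563, 548 and 594 CPM in KD and 650, 652 and 674 CPM in Ctrl, lower in each KD library by a small amount (log2 -0.21, SE 0.062, edgeR adjusted p = 0.0048). *Aurka* held 562, 698 and 604 CPM in KD against 390, 357 and 429 CPM in Ctrl, higher by 0.67 (SE 0.083, edgeR adjusted p = 1.0e-06). *Tpx2* held 2811, 2664 and 2897 CPM against 1983, 1889 and 1953 CPM, higher by 0.52 (SE 0.056, edgeR adjusted p = 1.5e-07). The kinase and its activator thus moved the same way, with no overlap between groups.
*Cdk5rap2* changed most of the set. It held 8.61, 6.96 and 9.87 CPM in KD and 24.7, 23.3 and 27.2 CPM in Ctrl, which are 36, 25 and 51 against 139, 117 and 94 exon counts, and it was lower by 1.54 on the log2 scale (SE 0.20, edgeR adjusted p = 1.5e-06). *Ckap5*, at 582, 550 and 610 CPM in KD and 591, 601 and 554 CPM in Ctrl, showed no difference past the threshold, with a 95% interval of the log2 difference from -0.14 to 0.13.

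Among the other 4 genes, 1 was higher, 1 lower and 2 did not pass, where 66.8% of all genes passed (30.5% higher and 36.4% lower). *Pcnt* held 95.8 and 104 CPM in KD and 50.4, 56.0 and 65.8 CPM in Ctrl, higher by 0.80 (SE 0.11, edgeR adjusted p = 1.2e-05). *Nedd1* held 57.8 and 63.0 CPM against 82.1, 83.0 and 72.1 CPM, lower by 0.39 on the log2 scale (SE 0.10, edgeR adjusted p = 0.003). *Tacc1*, at 121 and 126 CPM in KD and 132, 130 and 124 CPM in Ctrl, and *Cep192*, at 132 and 117 CPM and 137, 125 and 113 CPM, overlapped between groups. The 95% intervals of their log2 differences ran from -0.24 to 0.12 and from -0.22 to 0.20.

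Markers of stage moved with the injection groups. The 8 oocyte transcripts summed to 720 to 784 CPM in KD and 1619 to 1716 CPM in Ctrl, and the 7 2-cell transcripts to 336 to 367 CPM in KD and 1141 to 1232 CPM in Ctrl, while the 10 cumulus markers held 8.96 to 10.2 CPM and 10.8 to 12.0 CPM. The part of embryo stage in the KD values was not tested. Beside the set, 6 of 8 augmin genes were higher in KD and 2 lower on the whole annotation (30.5% and 36.4% of all genes), with a median log2 of 0.58 beside -0.09 over all genes. *Haus7* held 47.8 ± 0.271 CPM (n = 2) against 17.7 ± 1.29 CPM (n = 3) and *Haus4* 21.3 ± 1.70 against 56.5 ± 1.97 CPM. These list genes, too, stand in a comparison in which most genes passed the test.

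**Figure D5:**
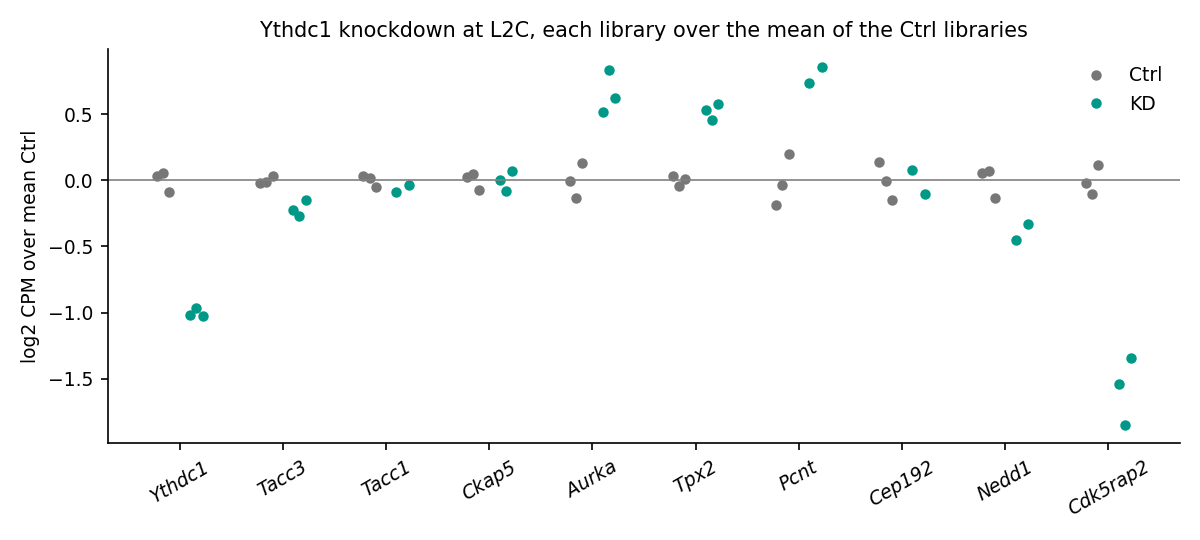
log2 of CPM over the mean of the 3 Ctrl libraries (y axis) for *Ythdc1* and the 9 genes, with Ctrl libraries in grey and KD libraries in green, 3 of them for genes of the deposited table and 2 for *Pcnt*, *Nedd1*, *Tacc1* and *Cep192*. *Ythdc1* and *Cdk5rap2* are far below Ctrl, *Aurka*, *Tpx2* and *Pcnt* lie above it, and *Tacc3* is slightly below.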

How the data were processed

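The authors counted SLIM-seq reads with kallisto and deposited estimated counts and TPM per gene, each gene being 1 target of its whole span on GRCm38. KD libraries went through Trimmomatic, HISAT2 and featureCounts, and the authors deposited raw counts on exons. The merged table ends on chromosome 7, as does KD replicate 3. Estimated counts were rounded and tested with the quasi-likelihood test of edgeR 4.0.16 (R 4.3.3, TMM, filterByExpr), adjusted by Benjamini-Hochberg over all genes tested and called under 0.05. The 18 SLIM-seq libraries were fitted together for IP/input and its change between stages, the 9 inputs for mRNA. DESeq2 1.42.0, library-size scaling, other filters and, for mRNA, a fit of all 18 libraries were alternatives. Fits were also run on simulated counts with few changed genes, as many up as down. This does not test them where most genes change or where scaling moves the median. Intervals are 95% intervals from the t distribution on edgeR's degrees of freedom. Libraries of the same replicate number did not deviate together, and pairing under other numbers was not tested. Replicates differed by more than counting error (lowest chi-square per degree of freedom 2.77). All 9 genes are named, with at most 4 genes per list (past the threshold, no overlap, at least 5 CPM, largest change) and the 5 genes most like *Tacc3*. The genes and lists were chosen with earlier results of these data known. Sequences and exons are those of GENCODE M21, and the motif windows were checked against the RefSeq genome of GRCm38. Python 3.11.15 drew the figures.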

Additional observations from a re-analysis of the deposited data

Results flagged for a closer look

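These values were listed for a closer look because the IP enrichment of a gene differed between 2 stages by the direct test of the difference (edgeR, adjusted p under 0.05). They are changes of log2 IP/input and no explanation of them was tested. From MII to L1C *Cdk5rap2* changed by -1.22 and *Cep192* by 1.12. From L1C to L2C *Tacc3* changed by -1.06, *Tacc1* by -0.52 and *Aurka* by -0.52. From MII to L2C *Cep192* changed by 1.5, *Ckap5* by 0.66, *Aurka* by -0.48, *Tacc1* by -1.01 and *Cdk5rap2* by -1.36. The 2 values of *Aurka* and the value of *Tacc1* from L1C to L2C did not pass with the replicate number as a block or with no filter on low counts. Those of *Cdk5rap2* rest on counts over a span of which 6.72% is exon.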

How the results depend on the processing

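Over the alternatives, the count of genes called moved by more than 1.5 times in 2 comparisons under scaling to library size, to 8 of 9 genes for IP/input at L1C and to 4 of 9 at L2C, from 5 and 8. The shares of all genes called under the alternatives are not given here. For the enrichment change from L1C to L2C it fell from 3 to 1, both without a filter on low counts and with the replicate block, the gene left being *Tacc3*. Same-numbered libraries did not deviate together (r -0.30 to 0.16 between IP and input of a stage, -0.15 to 0.36 between inputs of 2 stages), and the block otherwise ended only the call of *Aurka* from MII to L2C. Between IP and input libraries of different numbers at L1C, r ran from -0.39 to 0.53. Whether libraries are paired under other numbers was not tested. Of the values that had passed the test, the mRNA changes from MII to L2C of *Tpx2* (-0.39) and *Tacc1* (-0.23) turned in deposited TPM, an alternative chosen after seeing the data, as did *Aurka* from MII to L1C (-0.04), which had not passed. In the alternatives planned earlier directions turned only for values that had not passed: under library-size scaling *Ckap5* at MII (0.07), the changes of enrichment from MII to L1C of *Tpx2* (0.05) and *Nedd1* (0.05), and the mRNA changes of *Tacc1* from MII to L1C (0.02) and *Pcnt* from L1C to L2C (0.09, and 0.01 with the replicate block). With only the stages compared in the fit, the enrichment change from MII to L1C of *Aurka* (-0.05) and those of *Tpx2* from L1C to L2C (-0.09) and from MII to L2C (-0.09) turned. With DESeq2 the mRNA changes from L1C to L2C of *Cdk5rap2* (0.01) and *Pcnt* (0.14) and the KD values of *Ckap5* (0.01) and *Cep192* (0.02) turned.

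With each library left out in turn, the calls among the tested genes ran from 6 to 6 for IP/input at MII, 5 to 7 at L1C and 7 to 8 at L2C, from 2 to 3, 1 to 3 and 4 to 6 for the enrichment changes from MII to L1C, L1C to L2C and MII to L2C, from 5 to 6, 6 to 6 and 7 to 8 for the mRNA changes in that order, and were 4 and 2 in the KD experiment, in the table and beyond it. The 1 call from L1C to L2C was found without L1C input replicate 2, L2C input replicate 2, L1C IP replicate 1 or 2, or L2C IP replicate 2 or 3. Values near 0 turned for *Tpx2* (-0.12 to 0.05, -0.03 to 0.18 and -0.05 to 0.14 for the 3 enrichment changes in that order), *Aurka* (-0.05 to 0.14) and *Nedd1* (-0.11 to 0.13) from MII to L1C, *Pcnt* (-0.07 to 0.05 for enrichment from MII to L2C and -0.18 to 0.09 for mRNA from L1C to L2C), and in KD for *Ckap5* (-0.04 to 0.04) and *Cep192* (-0.10 to 0.09). The cause of these changes was not tested.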
